A study of Saccharomyces cerevisiae with 4 samples.

Results

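Messenger RNAs of chaperones and stress-protection proteins were followed through a precipitation of the mRNA export receptor Mex67 from budding yeast (Saccharomyces cerevisiae). They were a family of 59 listed genes, matched by gene symbol to the 5583 genes printed on the arrays. All 59 were printed on both array platforms. The genes fell into 7 groups by role. These were 12 constitutive chaperones that act at the ribosome or in the CCT ring, 9 genes of the cytosolic Hsp70 and Hsp90 system, 6 mitochondrial and endoplasmic reticulum chaperones, 10 heat-inducible chaperones and Hsp genes, 12 antioxidant enzymes, 7 trehalose and glycogen genes and 3 other stress genes.

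Chaperones bind unfolded protein and let it fold or be handed on. Hsp70 proteins and their Hsp40 partners work on chains as they leave the ribosome and on misfolded proteins, Hsp90 matures particular client proteins, and the CCT ring folds actin and tubulin. Part of this machinery is made at all times, whereas other members are induced by heat through the transcription factor Hsf1, or by many kinds of stress through Msn2 and Msn4. Antioxidant enzymes remove peroxide and superoxide, and trehalose and glycogen are storage carbohydrates, trehalose also protecting proteins and membranes. Export of heat-shock mRNAs from the nucleus also needs Mex67. The labels of these samples name no heat shock.

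The study held 4 two-channel arrays of 1 group. Each array carried cDNA of RNA precipitated through zz-tagged Mex67 in one channel and cDNA of RNA from a control precipitation of the bare tag in the other. The zz tag, taken from protein A, binds antibodies. The sources used here do not give the strain, the growth conditions or whether the arrays came from separate cultures, so p-values measure only the spread between arrays, which may be technical. Replicate 1 used one platform, and replicates 2, 3 and 4 a second one. The number of arrays and of spots with a value limits the precision, and the files hold no intensities.

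Each value below is the log2 ratio of a gene (the mean of its spots) minus the median of all genes of that array, so 0 is the array's typical mRNA and 1 is 2-fold above it. Before this centring the gene medians were 1.27, -0.58, -0.83 and 2.03 on replicates 1 to 4, as deposited. The sample titles name the zzMex67 precipitate first, and it is in channel 1 on replicates 1, 3 and 4. A higher ratio therefore likely means more of the mRNA in the zzMex67 precipitate, but the files do not settle this, and ratios are called only higher or lower. On replicate 2 the precipitate is in channel 2, and its sign was turned.

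Ratios on every array also moved with the place of a spot in the table. The medians of runs of 400 neighbouring spots lay between -1.80 and 1.17 around the array's spot median on replicate 1. They lay between -1.99 and 2.22 on replicate 3 and between -0.82 and 1.61 on replicate 4. On replicate 2, where 7.84% of spots had a value, they lay between -1.63 and 3.27 as deposited. The SD over runs was largest there, at 1.25, against 0.74, 0.93 and 0.59 on replicates 1, 3 and 4. Centring each run on its own median moved 9 of 55 members to the other side of 0 on replicate 1, 8 of 28 on replicate 3, 2 of 20 on replicate 4 and 0 of 4 on replicate 2. The values of these members "with runs centred" are given in the account of their group.

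The family as a whole stood near the array median. Values were obtained for 55 of the 59 genes on replicate 1 (93.2%, against 79.0% of all genes printed), 28 on replicate 3 (47.5% against 41.2%), 20 on replicate 4 (33.9% against 43.7%) and 4 on replicate 2 (6.78% against 9.46%). The medians of the measured members were 0.37 (SD over members 1.88), -0.18 (SD 1.56) and -0.28 (SD 1.49) on replicates 1, 3 and 4, a mean of -0.03 ± 0.35 (SD, n = 3 arrays). On replicate 2 the 4 members had a median of 0.08. On replicate 1, 22 of the 55 members lay 2-fold or more above the median, where 26.0% of all genes did, and 12 lay 2-fold or more below, where 21.1% did. On replicate 3, 7 of 28 were 2-fold or more higher (28.9% of all genes) and 6 lower (21.9%). Replicate 4 had 7 of 20 higher (22.5% of all genes) and 2 lower (17.4%). Single members ranged far more widely than the family, from -2.61 for SSE2 to 5.08 for GTT1 on replicate 1.

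**Figure D1:**
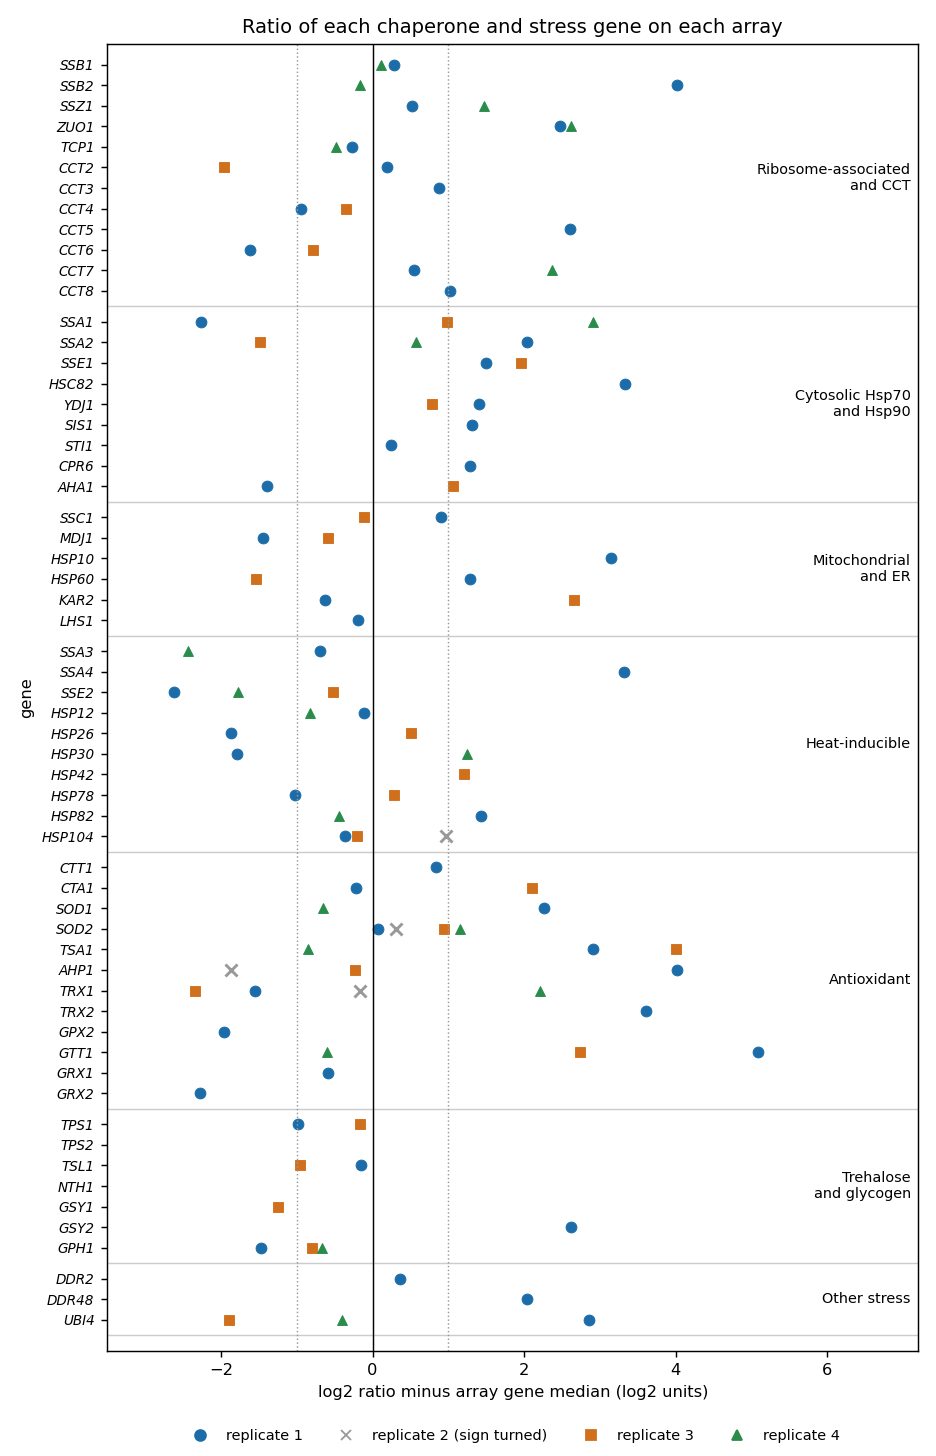
Centred log2 ratio (horizontal axis, log2 units) of each of the 59 genes (vertical axis, by group), with 1 symbol per array that measured it and dotted lines at 2-fold above and below the array median. Points of 1 gene often lie on both sides of 0, as for SSA1 at -2.26 on replicate 1 and 2.91 on replicate 4, and TPS2 and NTH1 have no point.

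The chaperones that sit on the ribosome were mostly on the higher side. SSB1 and SSB2 encode the Hsp70 proteins that bind nascent chains, and ZUO1 and SSZ1 encode the ribosome-bound Hsp40 and Hsp70-like partners that assist them. ZUO1 had 2.48 on replicate 1 and 2.62 on replicate 4, ranks of 87.7% and 95.7% among the genes of those arrays. SSZ1 had 0.52 and 1.46, and SSB1 0.28 and 0.12, on the same arrays. SSB2 had 4.02 on replicate 1, or 16.2-fold above the median, but -0.17 on replicate 4. So 7 of the 8 values of these 4 genes were above 0, where 50.0% of all genes of an array are by construction. Replicates 2 and 3 gave no value for them. The medians were 1.498 and 0.79. With runs centred, ZUO1 had 2.06 and 0.99, SSZ1 0.37 and -0.17, SSB1 1.38 and -0.02, and the median of the 4 genes on replicate 4 was -0.02, with 1 of 4 above 0.

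The CCT ring, a double ring of 8 related subunits encoded by TCP1 and CCT2 to CCT8, showed no common side. On replicate 1, which measured all 8 genes, the values ran from -1.62 for CCT6 to 2.60 for CCT5 with a median of 0.37 (SD over members 1.30), and 5 lay above 0. CCT3 and CCT8 had 0.88 and 1.03, CCT2 0.20, and CCT4 and TCP1 -0.95 and -0.26. Subunits of 1 complex thus lay on both sides of the median on a single array. Replicate 3 had CCT2, CCT4 and CCT6 at -1.97, -0.35 and -0.78, all below 0. Replicate 4 had CCT7 at 2.37 (0.55 on replicate 1) and TCP1 at -0.49. CCT4, CCT6 and TCP1 were lower on both arrays that measured them, and CCT7 was higher on both. With runs centred, 7 of the 8 subunits were above 0 on replicate 1, as CCT4 became 0.84 and TCP1 0.97. CCT6 became 0.08 on replicate 3, so that none of CCT4, CCT6 and TCP1 was then lower on both of its arrays. Together the 12 ribosome-associated and CCT genes had a median of 0.53 on replicate 1, -0.78 on replicate 3 and 0.79 on replicate 4, and the 3 genes measured on replicate 3 were all CCT genes.

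The cytosolic Hsp70 and Hsp90 system had a median above 0 on each of replicates 1, 3 and 4, at 1.31 (9 genes, SD over members 1.72), 0.98 (5 genes, SD 1.28) and 1.74 (2 genes). Of its 16 values on these arrays, 13 were above 0. SSE1, an Hsp110 nucleotide exchange factor for Hsp70, had 1.49 on replicate 1 and 1.96 on replicate 3. YDJ1, the main cytosolic Hsp40, had 1.40 and 0.78 on the same arrays. HSC82, the constitutive Hsp90, had 3.32 on replicate 1, its single value. On that array the essential Hsp40 gene SIS1 had 1.31, the Hsp90 cochaperone genes CPR6 and STI1 1.28 and 0.24, and AHA1, which stimulates the Hsp90 ATPase, -1.40. AHA1 turned to 1.06 on replicate 3. With runs centred, 10 of the 16 values stayed above 0 and the median on replicate 3 became -0.15, as SSE1 went to -0.15 and SSA1 to -1.25 there. STI1 went to -0.70 on replicate 1.

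SSA1 and SSA2, near-identical Hsp70 genes of the cytosol, were measured on 3 arrays. SSA1 had -2.26, 0.98 and 2.91 on replicates 1, 3 and 4, a mean of 0.54 ± 2.61 (SD, n = 3). SSA2 had 2.03, -1.48 and 0.58, a mean of 0.37 ± 1.77 (SD, n = 3). The genes lay on opposite sides of 0 on replicates 1 and 3 and both above it on replicate 4, and neither mean exceeded its spread. With runs centred both were below 0 on replicate 3, at -1.25 for SSA1 and -1.23 for SSA2. Without replicate 4 the mean of SSA1 was -0.64, and without replicate 1 it was 1.94 for SSA1 and -0.45 for SSA2.

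Chaperones of mitochondria and the endoplasmic reticulum were spread on both sides. HSP10, the cochaperonin of the mitochondrial matrix, had 3.15 on replicate 1, and its partner HSP60 had 1.29 there and -1.53 on replicate 3. SSC1, the matrix Hsp70, had 0.90 and -0.11, and its Hsp40 partner MDJ1 had -1.44 and -0.58. KAR2, the Hsp70 of the endoplasmic reticulum, had -0.63 on replicate 1 and 2.66 on replicate 3, where TSA1 and GTT1 alone among the members were higher. LHS1, its exchange factor, had -0.20 on replicate 1. Of the 4 genes with a value on both arrays, MDJ1 alone kept its side, and with runs centred it had 0.31 on replicate 3 and 0 of the 4 did. The group medians were 0.35 (6 genes) and -0.35 (4 genes), and replicates 2 and 4 measured none of the 6.

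The heat-inducible genes lay more often below the array median than above it. Their medians were -0.70 (9 genes, SD over members 1.83), 0.29 (5 genes, SD 0.67) and -0.82 (5 genes, SD 1.41) on replicates 1, 3 and 4, and 13 of the 19 values were below 0. With runs centred the medians were -0.37, 0.20 and -0.59, and 12 of 19 values were below 0. SSE2, the stress-induced relative of SSE1, had -2.61, -0.52 and -1.78, a mean of -1.64 ± 1.06 (SD, n = 3). It was below the median on all 3 arrays, at ranks of 3.39% and 4.94% among the genes of replicates 1 and 4, and had -1.52, -1.52 and -1.33 with runs centred. SSA3, a stress-induced cytosolic Hsp70, had -0.70 and -2.44 on replicates 1 and 4. HSP12, a small protein that stabilises membranes, had -0.11 and -0.82.

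The other heat-inducible genes had no such common side. HSP104, which pulls proteins out of aggregates, stayed near the median at -0.36 and -0.21 on replicates 1 and 3 and had 0.97 on replicate 2 (-0.97 as deposited). Its mitochondrial relative HSP78 had -1.02 and 0.29 on replicates 1 and 3. The small heat-shock protein gene HSP26 had -1.87 and 0.51, and HSP42, another of that family, had 1.202 on replicate 3 alone. HSP30, a plasma membrane protein gene, had -1.78 on replicate 1 and 1.25 on replicate 4. HSP82, the inducible Hsp90, had 1.43 and -0.45 on those arrays. SSA4, a heat-induced Hsp70 with very little mRNA in unstressed cells, had 3.32, the highest value of the group on replicate 1 and its single measurement. Of the 8 heat-inducible genes with at least 2 values on replicates 1, 3 and 4, 4 were below the median each time (SSA3, SSE2, HSP12 and HSP104), where 23.2% of all genes with as many values were, and 0 above it each time, where 22.8% were. With runs centred SSA3 had 0.21 on replicate 1, and 3 of the 8 were below each time, against 22.9% of all genes.

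Antioxidant genes held the highest value of the family on replicates 1 and 3 (GTT1 and TSA1) and its lowest on replicate 3 (TRX1). The median was 0.45 (12 genes, SD over members 2.50), 1.53 (6 genes, SD 2.26) and -0.59 (5 genes, SD 1.36) on replicates 1, 3 and 4, and -0.16 for the 3 genes of replicate 2. GTT1, a glutathione transferase gene, had 5.08 on replicate 1, higher than 99.8% of the genes of that array. It had 2.74 on replicate 3 but -0.59 on replicate 4, a mean of 2.41 ± 2.85 (SD, n = 3), and without replicate 1 the mean was 1.07. TSA1, the main cytosolic peroxiredoxin gene, had 2.91, 3.996 and -0.84 on the same arrays, a mean of 2.02 ± 2.54 (SD, n = 3), which was 1.03 without replicate 3 and 3.45 without replicate 4. Both genes were high on replicates 1 and 3 and below the median on replicate 4. AHP1, another peroxiredoxin gene, had 4.01 on replicate 1, -0.22 on replicate 3 and -1.87 on replicate 2 (1.87 as deposited). With runs centred the group medians were 0.85, 1.06 and -0.24 on replicates 1, 3 and 4, GTT1 had 1.42 and TSA1 1.89 on replicate 3, and AHP1 had 0.69 there. The highest member of replicate 3 was then KAR2, at 3.18, and the lowest remained TRX1, at -4.57.

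SOD2, which encodes the mitochondrial manganese enzyme, was measured on all 4 arrays and had 0.07, 0.31, 0.95 and 1.16 on replicates 1 to 4. All of these were above 0, but the value of replicate 2 is -0.31 as deposited, and with runs centred those of replicates 1 and 3 were -0.05 and -0.02. SOD1, the cytosolic copper and zinc enzyme, had 2.26 on replicate 1 and -0.65 on replicate 4. TRX1, a cytosolic thioredoxin gene, was the other member with 4 values, at -1.55, -0.16, -2.34 and 2.21 on replicates 1 to 4, and its value on replicate 2 is 0.16 as deposited. Replicates 1 and 3 were low and replicate 4 high, while on replicate 2 its 2 spots differed by 1.86. CTA1, the peroxisomal catalase gene, had -0.22 and 2.11 on replicates 1 and 3. Measured on replicate 1 alone, CTT1, the cytosolic catalase gene, had 0.84, GPX2, a glutathione peroxidase gene, -1.97, and the glutaredoxin genes GRX1 and GRX2 -0.59 and -2.27. With runs centred, replicate 1 had CTA1 at 1.01, GRX1 at 0.32, GRX2 at -0.49 and GPX2 at -0.73.

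Trehalose and glycogen genes had medians below 0 on replicates 1, 3 and 4, but this depended on how spot position was treated. GPH1, glycogen phosphorylase, had -1.47, -0.80 and -0.67 on replicates 1, 3 and 4, a mean of -0.98 ± 0.43 (SD, n = 3). TPS1, the trehalose-6-phosphate synthase, had -0.98 and -0.16 on replicates 1 and 3, and TSL1, a large subunit of that complex, had -0.16 and -0.96. GSY1, a glycogen synthase gene, had -1.25 on replicate 3. So 8 of the 9 values lay below 0, and the exception was the other glycogen synthase gene, GSY2, at 2.61 on replicate 1. The medians were -0.57 (4 genes, SD over members 1.82), -0.88 (4 genes, SD 0.46) and -0.67 (GPH1 alone), a mean of -0.71 ± 0.16 (SD, n = 3 arrays). With runs centred this mean was -0.13 and 5 of 9 values were below 0, among them GPH1 at -1.74 and -0.42 on replicates 1 and 4, against 0.10 on replicate 3. TPS1 then had 0.11 and 0.16, above 0 on both arrays. TPS2, the trehalose phosphatase, and NTH1, a trehalase, had no value on any array.

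UBI4, the stress-induced polyubiquitin gene, had 2.85 on replicate 1, -1.89 on replicate 3 and -0.40 on replicate 4, a mean of 0.19 ± 2.42 (SD, n = 3), and -1.15 without replicate 1. DDR48 and DDR2, induced by DNA damage and other stress, had 2.04 and 0.37 on replicate 1, or -0.02 for DDR2 with runs centred. The first array was again the high one for UBI4.

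Set side by side, the constitutive chaperones exceeded the heat-inducible genes on 2 of 3 arrays. The difference between the group medians was 1.23 on replicate 1, -1.07 on replicate 3 and 1.61 on replicate 4, a mean of 0.59 ± 1.45 (SD, n = 3), which is smaller than its spread. Different genes stand behind these numbers, since replicate 3 measured CCT genes and no ribosome-associated gene, and replicate 4 all 4 ribosome-associated genes. Without replicate 3 the mean was 1.42, and without replicate 4 it was 0.08. Widening the heat-inducible group by the cytosolic Hsp70 and Hsp90 system, some of which is induced by heat too, brought the mean to 0.09. With runs centred and the group not widened, the mean was 0.50 ± 0.76 (SD, n = 3), again smaller than its spread. Before runs were centred, the differences against the antioxidant genes were 0.08, -2.31 and 1.38. Their mean was -0.28 ± 1.87 (SD, n = 3), and 0.73 without replicate 3. With runs centred it was -0.31 ± 0.74 (SD, n = 3). Against the trehalose and glycogen genes the differences before that step were 1.11, 0.10 and 1.46, all above 0. Their mean was 0.89 ± 0.70 (SD, n = 3). The value of replicate 4 rests on GPH1 alone for the trehalose and glycogen genes. With runs centred the mean was 0.38 ± 0.50 (SD, n = 3), and the common side was lost. On replicate 3 the constitutive median was then -0.10 and the trehalose and glycogen median 0.03. These medians are descriptions of groups chosen with results of these arrays known and were not tested. They also join 2 platforms by values centred separately.

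**Figure D2:**
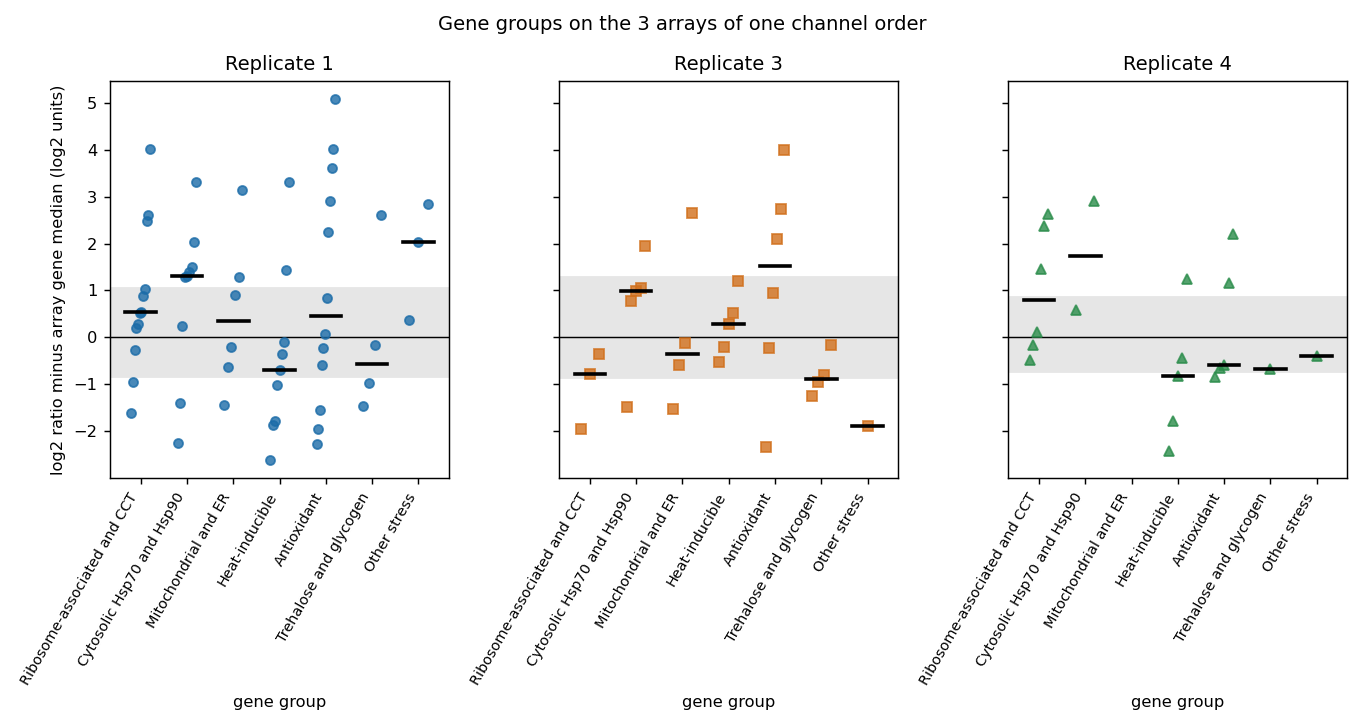
Centred log2 ratios (vertical axis, log2 units) of the members by gene group (horizontal axis) on replicates 1, 3 and 4, with 1 point per gene, a black bar at the group median and a grey band from the lower to the upper quartile of all genes of the array. The trehalose and glycogen bars lie below 0 on each array (-0.57, -0.88 and -0.67) and those of the cytosolic Hsp70 and Hsp90 system above it (1.31, 0.98 and 1.74), while the antioxidant bar moves from 1.53 on replicate 3 to -0.59 on replicate 4.

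Related genes often had unlike ratios. On replicate 1, TRX2, the other cytosolic thioredoxin gene, had 3.61 and exceeded TRX1 by 5.15, the widest gap among 6 related pairs measured on the same array. SSB2 stood 3.74 above SSB1 on replicate 1, but the pair differed by 0.28 on replicate 4, with SSB1 the higher. With runs centred SSB1 minus SSB2 was -2.52 on replicate 1. HSC82 exceeded HSP82 by 1.89, and GRX1 exceeded GRX2 by 1.69, on replicate 1 (0.81 for GRX1 minus GRX2 with runs centred). SSE1 exceeded SSE2 on both arrays that measured the pair, by 4.11 on replicate 1 and 2.47 on replicate 3 (2.62 and 1.37 with runs centred). SSA1 minus SSA2 was -4.30 on replicate 1 and 2.47 and 2.33 on replicates 3 and 4, or -2.20, -0.02 and 1.53 with runs centred. Whether the probes tell near-identical genes apart is not stated. GSY1 and GSY2 were not measured on a common array.

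**Figure D3:**
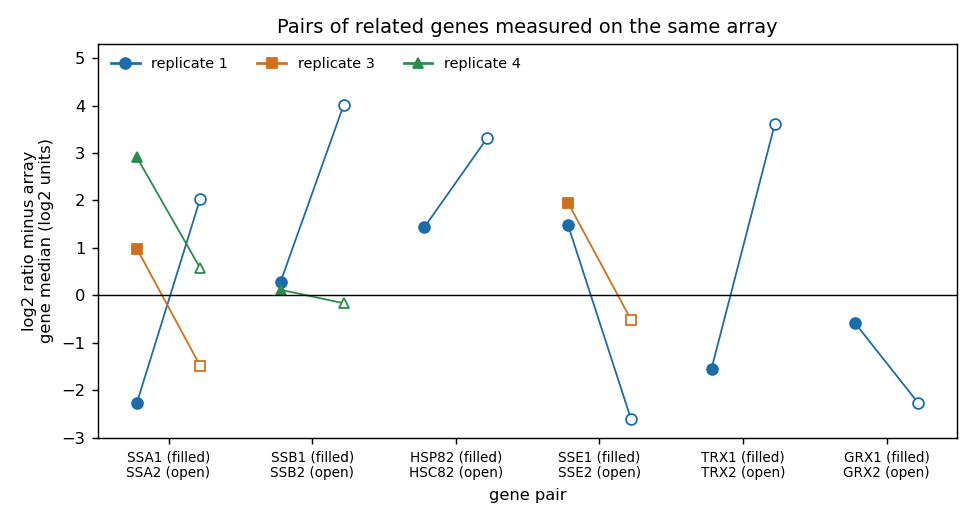
Centred log2 ratios (vertical axis, log2 units) of 6 pairs of related genes (horizontal axis), with the first gene filled, the second open and a line joining values from the same array. The SSE1 and SSE2 lines fall on both arrays (by 4.11 and 2.47), while the SSA1 and SSA2 line of replicate 1 runs against those of replicates 3 and 4.

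The spread between arrays was wider than that between spots of a gene on 1 array. Members with 2 measured spots differed between the spots by a median of 0.84 on replicate 1 (8 genes), 0.46 on replicate 3 (24 genes) and 0.33 on replicate 4 (13 genes), close to 0.81, 0.48 and 0.41 over all genes with 2 spots. The same member on different arrays differed by a median of 1.199 between replicates 1 and 3 (26 genes), 1.78 between 1 and 4 (20 genes) and 1.93 between 3 and 4 (9 genes). Over all genes these medians were 1.51, 1.35 and 1.61. The closest pairs of values were those of GPH1 on replicates 3 and 4 (0.14 apart), ZUO1 on 1 and 4 (0.14 apart) and HSP104 on 1 and 3 (0.15 apart). The widest gap between replicates 1 and 4 was that of GTT1 (5.68 apart). Between 3 and 4 it was that of TSA1 (4.84 apart), and between 1 and 3 that of UBI4 (4.74 apart).

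Members took the same side on a pair of arrays about as often as any gene. On replicates 1 and 3, 14 of 26 did (51.6% of all genes), on 1 and 4, 11 of 20 (52.5% of all genes), and on 3 and 4, 5 of 9 (50.5% of all genes). Correlations across members, which are genes and not independent replicates, were 0.24 (Spearman's rho 0.14), -0.13 (rho -0.04) and -0.20 (rho -0.28) for the same pairs. With 2 or 3 values on replicates 1, 3 and 4, 7 of 37 members were above the median each time, against 22.8% of all genes, and 11 below it each time, against 23.2%. The 7 were SSB1, SSZ1, ZUO1, CCT7, SSE1, YDJ1 and SOD2. The 11 were TCP1, CCT4, CCT6, MDJ1, SSA3, SSE2, HSP12, HSP104, TPS1, TSL1 and GPH1. With runs centred, 3 of the 7 (ZUO1, CCT7 and YDJ1) and 4 of the 11 (SSE2, HSP12, HSP104 and TSL1) kept their side. The counts were then 6 of 37 above each time, against 23.6% of all genes, and 4 below, against 22.9%. Of the 9 members with a value on each of the 3 arrays, 1 (SOD2) was above the median on all, against 19.2% of all genes, and 2 (SSE2 and GPH1) below on all, against 9.24%. With runs centred SSE2 alone of these 3 kept its side on every array.

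**Figure D4:**
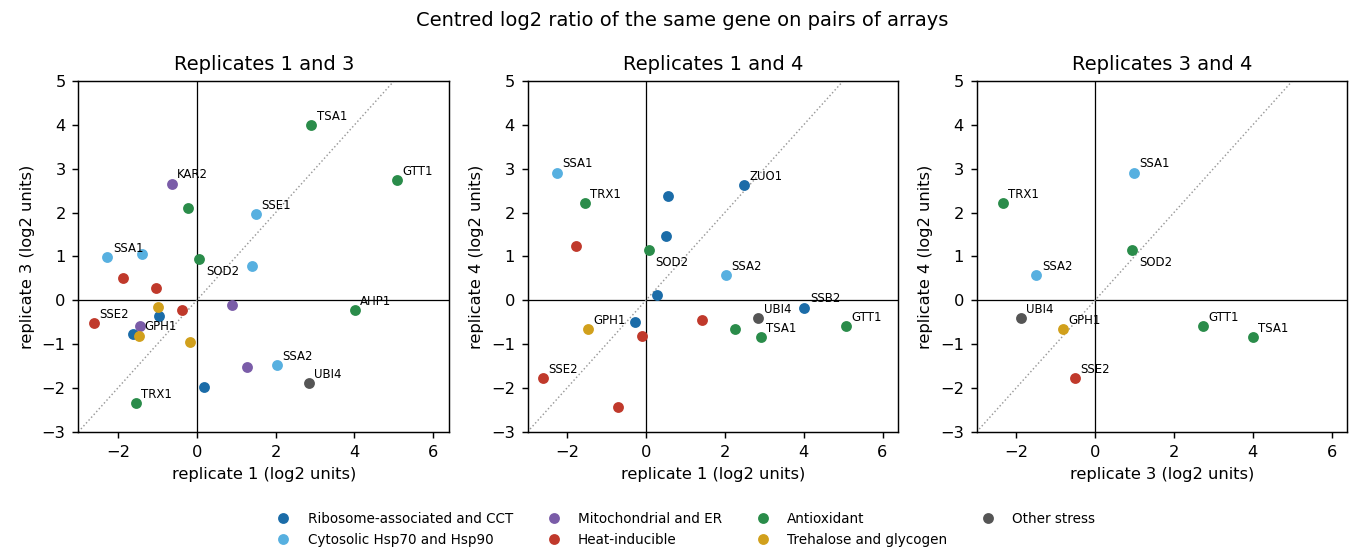
Centred log2 ratio of each member on 1 array (horizontal axis, log2 units) against another (vertical axis, log2 units) for the pairs among replicates 1, 3 and 4, with colours for the gene groups and a dotted line of equal values. Points fall in all 4 quadrants, with TSA1 and GTT1 high together on replicates 1 and 3 and SSE2 low in every panel.

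No member passed the test of the second platform. Only SOD2 and TRX1 had values on replicates 2, 3 and 4, at means of 0.81 ± 0.44 and -0.10 ± 2.28 (SD, n = 3), with adjusted p-values of 0.837 and 0.965 in limma over the 135 genes measured on all 3 arrays. The test called 0 of the 135 genes (0%), and 6 genes, neither of the 2 members among them, had an unadjusted p under 0.05. Joined across platforms, replicates 1, 3 and 4 held 9 members among 725 genes, of which limma called 0 (0%). GTT1 was the 1 member with an unadjusted p under 0.05 (limma, adjusted p = 0.552), followed by TSA1 and SSE2 (limma, adjusted p = 0.626 for both), beside 65 such genes among the 725. On replicates 3 and 4 alone limma called 0 of 923 genes (0%). There 53 genes, with 0 of the 9 members, were at an unadjusted p under 0.05.

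Further genes of the same pathways, 69 of which were listed as other cofactors, regulators and enzymes, had no common side across the arrays. Limma called 0 of the 9 that had values on replicates 1, 3 and 4, with 0 at an unadjusted p under 0.05. It called 0 of the 1 measured on replicates 2, 3 and 4. On replicates 3 and 4 alone limma called 0 of the 10 with values. In that fit 3 of these 10 had an unadjusted p under 0.05, beside 53 of all 923 genes. On replicate 1, 21 of 55 further genes were above 0 with a median of -0.30. There 14 lay 2-fold or more above (26.0% of all genes) and 16 below (21.1%). Replicate 3 had 16 of 22 above 0 with a median of 0.65, and 8 lay 2-fold or more above (28.9% of all genes) and 2 below (21.9%). Replicate 4 had 12 of 28 above 0 with a median of -0.10, and 9 lay 2-fold or more above (22.5% of all genes) and 6 below (17.4%). Before runs were centred, the other trehalose and glycogen genes did not share the lower side of the listed members. The medians of these other genes were 0.23 (8 genes), 0.74 (5 genes) and 1.72 (6 genes). Centring the runs brought the listed members to -0.01 on replicate 1, 0.03 on replicate 3 and -0.42 on replicate 4 (GPH1 alone). After that step the other trehalose and glycogen genes ran from -1.69 to 2.88 on replicate 1. They ran from -0.38 to 3.43 on replicate 3 and from -7.67 to 3.36 on replicate 4. These ranges took in the median of the listed members on each array. A contrast between the lists was not tested. The 15 further Hsp70, Hsp40 and Hsp90 cofactors had medians of -0.37 (14 genes), 0.22 (3 genes) and 0.80 (6 genes), and the 10 nascent chain and prefoldin factors -0.30 (9 genes), -0.65 (3 genes) and -0.21 (3 genes). SBA1, an Hsp90 cochaperone gene, was the highest of the 69 on replicate 1 at 3.41, and HSP31, a chaperone of the DJ-1 family, the lowest at -3.06.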

How the data were processed

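Per the labels, each array compared RNA precipitated with zzMex67 and with the zz tag alone. What the authors deposited are log10 channel ratios, in 2 tables of different platforms. The log10 base follows from the deposited values: 10 raised to them gave simple fractions (denominators up to 40, tolerance 2e-08) for 0.224%, 3.59%, 11.6% and 11.0% of spots on replicates 1 to 4, against 0.130% or less with base 2. The sources used here do not give the background correction, normalization, dyes or numerator.

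Values were converted to log2, spots of a gene averaged, and arrays centred on the gene median, without loess. The platform annotation named 6695 of 7680 and 11138 of 12800 spots, and 0 symbols needed updating. Limma 3.58.1 (R 4.3.3) fitted an intercept to genes measured on replicates 2, 3 and 4, with p-values adjusted by Benjamini-Hochberg over all of them (threshold 0.05). It was also run on simulated data, where recovery of planted shifts was required only at a spread far below that of the arrays. Recovery at the arrays' own spread is not reported here. Group medians were averaged over replicates 1, 3 and 4. Every member could be named. Of the further pathway genes, the highest and lowest on replicate 1 were named. Members, groups and lists were chosen with earlier results of these data known. Alternatives covered sign, centring, scaling, position, spots, arrays and a dye term.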

Additional observations from a re-analysis of the deposited data

How the results depend on the processing

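The count of members called by limma was 0 under the main setting and all 14 alternatives, with 1 to 9 members tested, so it says little about stability. Without centring, the means over replicates 1, 3 and 4 were 0.79 for the median of all members, 0.41 for heat-inducible genes and 0.12 for trehalose and glycogen genes. Past 2-fold were then 18 of 20 members on replicate 4 and 2 of 4 on replicate 2 (9 and 1 with centring). As the median of all genes was itself 2.03 on replicate 4 and -0.58 on replicate 2 as deposited, these counts say nothing particular about the members. With only genes of several measured spots, the means were 0.62 for all members, 0.037 for trehalose and glycogen genes (2 arrays) and -0.28 for constitutive minus trehalose and glycogen (1 array). Past 2-fold were then 6 of 8 members on replicate 1 and 5 of 13 on replicate 4 (34 of 55 and 9 of 20 otherwise). The share of all genes past 2-fold under these settings was not computed. With runs centred the trehalose and glycogen mean was -0.13. Without that step, the constitutive mean for the ribosome-associated genes alone was 1.14 (2 arrays). With runs centred the medians of these genes were 1.72 on replicate 1 and -0.02 on replicate 4. Leaving out the centring moves each mean of group medians by the average of the 3 array medians, by construction. The causes of the other changes were not tested. Of the 110 alternative values of these summaries, 98 stayed within the spread between arrays or within 1.5 times the count. This tally says little about stability. It includes the 14 limma counts of 0 and the group differences without centring, which equal the main values by construction. A change of side also counted as staying where the spread was wide. Constitutive minus antioxidant genes went from -0.28 to 0.73 without replicate 3, within an SD of 1.87. Leaving out 1 of replicates 1, 3 and 4 gave means from 0.08 to 1.42 for constitutive minus heat-inducible genes and from -1.11 to 0.73 for constitutive minus antioxidant genes. The widened and split groups and the repeats of the 2-fold counts were added after seeing the data. No paired analysis was possible because the arrays form 1 group. Dim spots could not be filtered, as the files hold no intensities.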

Other observations

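Among the further pathway genes, HSF1 and TPS3 had the ratios furthest outside the range of the 59 members, on 1 array each, and NTH2 changed sides between the platforms. Other further genes lay outside the members' range of an array by less, such as HSP31 at -3.06 on replicate 1 and GLR1 at 4.19 on replicate 3. HSF1, TPS3 and NTH2 were picked after their values were seen. HSF1, the gene of the heat-shock transcription factor, had 7.75 on replicate 3 from 1 spot, against -1.71 on replicate 1 and -0.10 on replicate 4. TPS3, a regulatory subunit gene of the trehalose synthase complex, had -7.93 on replicate 4 from 2 spots that differed by 1.34, and -0.07 and 1.73 on replicates 1 and 3. NTH2, a relative of the trehalase gene NTH1, had 2.65 and 3.26 on replicates 3 and 4, where its spots differed by 0.26 and 0.15, and -2.93 on replicate 1. With runs centred these values were 8.01 for HSF1 on replicate 3, -7.67 for TPS3 on replicate 4, and 3.43, 3.36 and -1.69 for NTH2 on replicates 3, 4 and 1.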
